A study of Homo sapiens with 9 samples.

Results

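The RUNX transcription factors, their partner CBFB, the ETO family and 2 corepressors were followed through knockdown of ASXL2 in SKNO-1, an established human line derived from acute myeloid leukaemia in which RUNX1 is fused to RUNX1T1 (AML1-ETO). The set was taken by gene symbol and held 9 of the 25680 genes in the count tables: RUNX1, RUNX2, RUNX3, CBFB, RUNX1T1, CBFA2T2, CBFA2T3, NCOR1 and SIN3A. All 9 were found, in 38 transcript rows, and all 9 passed the filter on low counts. Messenger RNA was sequenced from 9 libraries in 3 groups of 3. EV was the control, which the study describes as a control shRNA while the labels leave the abbreviation unexplained. SH2 and SH3 carried either of 2 shRNAs directed at ASXL2, a chromatin regulator of the additional sex combs-like family. All groups were the same line with the fusion, so no group lacked it. The study's methods describe culture with GM-CSF. The labels number the libraries of every group 1, 13 and 25 without saying what the numbers mean, and a single cell line stands for the disease.

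RUNX proteins bind DNA through their runt domain, and CBFB (core binding factor beta) binds no DNA itself but strengthens that contact. RUNX1 is required for the emergence of blood stem cells and directs myeloid and megakaryocytic differentiation. In the t(8;21) translocation the 5′ exons of RUNX1, with the runt domain, are joined to nearly all of RUNX1T1, also called ETO or MTG8. ETO proteins are corepressors: they bring NCOR1, SIN3A and histone deacetylases to DNA. The fusion protein can thus hold such complexes at RUNX sites. CBFA2T2 (MTGR1) and CBFA2T3 (MTG16) are the other two members of the ETO family and form oligomers with ETO and with the fusion.

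RUNX1 has a distal promoter, P1, and a proximal one, P2, and its 3 rows in the tables differ in the promoter and in the 3′ end they represent. The sequence just upstream of each annotated start is shown because the row comparison turns on which starts and ends were read. Both stretches hold 250 bases and lie on the minus strand of chromosome 21 in GRCh37, P1 at chr21:36421642-36421891 and P2 at chr21:36260988-36261237. Capitals mark the RUNX core motif TGTGGT or its reverse complement ACCACA.
P1: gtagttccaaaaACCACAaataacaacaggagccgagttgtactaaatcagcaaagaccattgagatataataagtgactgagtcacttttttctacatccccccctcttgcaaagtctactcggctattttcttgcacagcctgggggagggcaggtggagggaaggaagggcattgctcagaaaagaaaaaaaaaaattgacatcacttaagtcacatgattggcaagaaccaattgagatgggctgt
P2: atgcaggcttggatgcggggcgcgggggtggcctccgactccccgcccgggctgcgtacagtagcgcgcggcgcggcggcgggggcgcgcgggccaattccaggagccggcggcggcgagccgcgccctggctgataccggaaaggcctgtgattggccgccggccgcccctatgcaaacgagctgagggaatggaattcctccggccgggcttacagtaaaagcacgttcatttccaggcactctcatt

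The P1 stretch held 1 match and the P2 stretch 0. Of 35116 RefSeq promoters (GRCh38.p14) searched on both strands over 250 bases before the start, 11% held at least 1 match. The 2 promoters differed in base composition: P1 had 42.8% G and C with 2 CpG pairs, and P2 had 69.2% with 31, beside a median of 58.0% and 11 over all promoters. These are letter matches and describe no binding.

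The totals were 27714431 to 35406063 counts per library with 1 row per gene, so that 3 counts corresponded to 0.0847 to 0.108 CPM (the count scaled to the effective library size). The targeted gene checked the labels: ASXL2 stood at 67.9 to 74.7 CPM in EV and at 26.9 to 41.1 in the 6 knockdown libraries. Of 12 markers of myeloid leukaemia blasts, 10 averaged at least 1 CPM, among them MPO at 6370 to 10200 CPM and KIT at 237 to 419, while CD34 stayed at or below 0.309 and CSF2RA at or below 0.0313. Whether the near absence of CSF2RA counts reflected its RNA or how its reads were counted was not tested. T cell, erythroid, epithelial and fibroblast markers summed to at most 0.443 CPM in any library, and endothelial markers to 4.09 to 9.60 CPM. The B cell list summed to 62.4 to 67.7 CPM in EV, 60.7 to 70.6 in SH2 and 51.8 to 60.2 in SH3, which lay below EV. The megakaryocyte list summed to 98.0 to 109 CPM in EV, 55.8 to 69.3 in SH2, which lay below EV, and 61.9 to 144 in SH3. The part of either list in the results was not tested. ITGA2B, itself a RUNX1-bound gene, gave nearly all of the megakaryocyte sum, while PF4 had no count. Library SH3 number 1 stood apart from its group: a chi-square statistic of its counts against the other SH3 libraries was 128 and 119 per degree of freedom, beside 17.6 to 53.3 for all other pairs within groups. Results that change without it are given both ways.

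Per kilobase of transcript, CBFB and RUNX1 were the most abundant of the set in the control cells. CBFB reached 46.3 ± 6.7 CPM per kb in EV (SD, n = 3) and RUNX1 41.4 ± 0.86, and their EV libraries overlapped. RUNX3 followed at 30.3 ± 2.4 and SIN3A at 23.3 ± 2.3, and neither overlapped its neighbours. RUNX1T1 stood at 17.1 ± 1.4, above RUNX2 at 12.6 ± 2.2 and NCOR1 at 11.5 ± 0.36, which overlapped each other. CBFA2T3 at 5.54 ± 1.8 and CBFA2T2 at 4.37 ± 0.18 were lowest and overlapped. Lengths were those of the longest coding model. The place of RUNX1T1 depended on that choice: with its much shorter canonical model (2792 in place of 7540 bases) it would be at 46.1 CPM per kb. On the longest models RUNX1 made up 49.2% ± 2.5 of the RUNX family signal in EV, RUNX3 35.9% ± 1.9 and RUNX2 14.9% ± 2.0. Within the ETO family RUNX1T1 made up 63.5% ± 3.0, a figure that includes whatever came from the fusion.

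**Figure D1:**
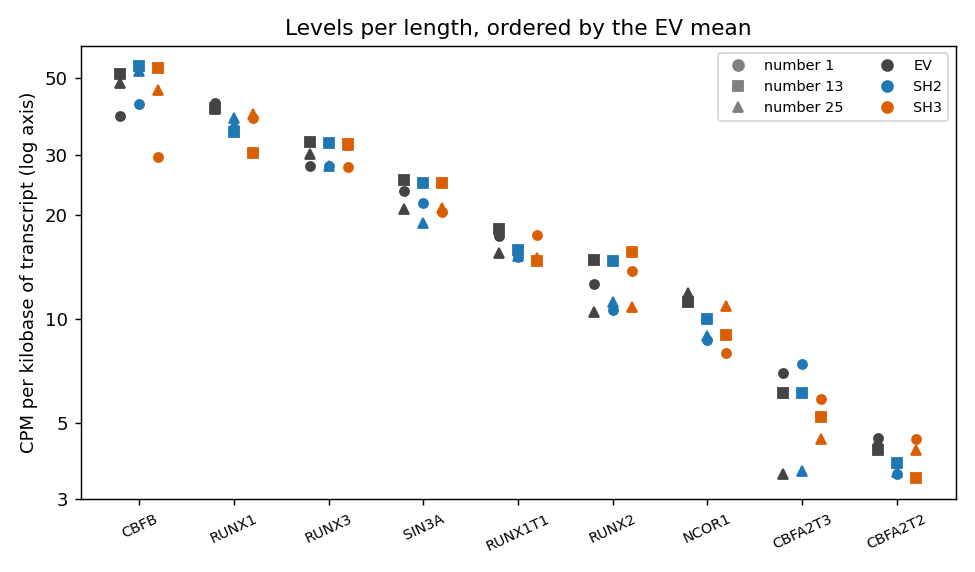
CPM per kilobase of transcript (log axis) for the 9 genes in the 9 libraries, ordered by the EV mean; colours are groups and shapes are replicate numbers. CBFB and RUNX1 overlap at the top, and CBFA2T3 spreads from 3.54 to 7.38 while CBFA2T2 stays between 3.46 and 4.51.

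None of the 9 genes passed the edgeR test for either shRNA with all libraries, and RUNX1 and NCOR1 were lower in all 6 knockdown libraries than in all 3 controls. In the edgeR fit of the 3 groups no gene at all passed an adjusted p of 0.05 for SH2, SH3 or their average (0.0% of 14199 genes each), and 762, 723 and 942 genes had an unadjusted p below 0.05. DESeq2 on the same groups called 25, 26 and 56 genes, and 0 of the 9. The 14199 tests include ASXL2 itself, whose averaged log2 fold change of -1.08 (SE 0.13) had an adjusted p of 0.177. The same numbers in the 3 groups marked libraries that deviated together, and a second fit took the number as a block. It called 40, 59 and 156 genes (0.282%, 0.416% and 1.1%), ASXL2 among them with an averaged log2 fold change of -1.09 (adjusted p = 0.00098), and still 0 of the 9. DESeq2 with the block called 1 of the 9, NCOR1, with an adjusted p of 0.0388 for SH2, 0.0397 for SH3 and 0.0101 for the average (2.63%, 3.34% and 4.38% of all genes). All 6 knockdown libraries lay below all 3 EV libraries in 2.61% of genes, against 2 of the 9 here. Between SH3 and SH2, 0 of the 9 were called without the block (0.0% of genes) or with it (0.106%). In such bulk libraries, fewer cells that express a gene and less RNA per cell cannot be told apart.

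**Figure D2:**
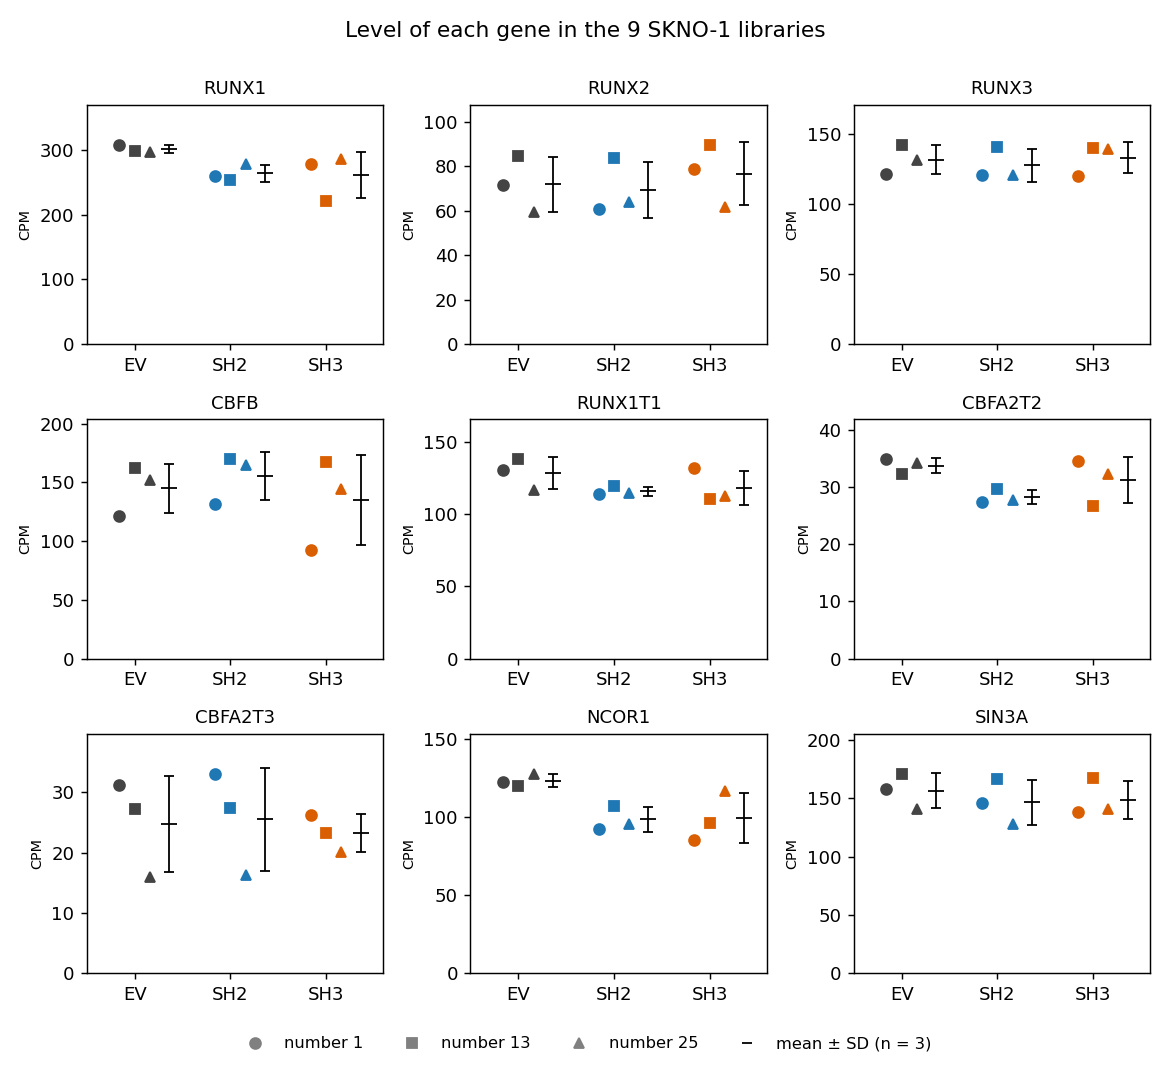
CPM of each gene in each library, with an axis from 0, by group (EV, SH2, SH3) and replicate number (shape); bars are mean ± SD of 3 libraries. RUNX1 and NCOR1 have every knockdown library below every EV library, whereas CBFB and CBFA2T3 follow the replicate number more than the group.

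RUNX1 stood at 308, 298 and 297 CPM in EV numbers 1, 13 and 25, at 261, 254 and 279 in SH2, and at 279, 221 and 286 in SH3. The EV libraries were close together and the lowest value was SH3 number 13. Against the EV library of the same number, the knockdown libraries held 84.5%, 85.0% and 93.9% in SH2 and 90.4%, 74.2% and 96.3% in SH3. The log2 fold change was -0.19 (95% interval -0.43 to 0.06, adjusted p = 0.963) for SH2 and -0.20 (-0.45 to 0.04, adjusted p = 0.971) for SH3. The edgeR fit with the block gave narrower intervals, -0.19 (-0.37 to -0.01, adjusted p = 0.252) for SH2 and -0.21 (-0.39 to -0.03, adjusted p = 0.215) for SH3. Its averaged value was -0.20 (-0.36 to -0.04, adjusted p = 0.155). The 2 shRNAs differed by -0.01 (-0.26 to 0.23) in RUNX1. RUNX1 was lower in 6 of 6 same-number pairs, as were 11.6% of all genes.

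RUNX2, the RUNX protein of bone formation, and RUNX3, known from T cell and neuronal development, showed no common direction. RUNX2 ranged from 59.6 to 84.5 CPM in EV and from 60.6 to 89.7 in the knockdown libraries, with an averaged log2 fold change of 0.02 (-0.33 to 0.38). RUNX3 ranged from 121 to 142 CPM in EV and from 120 to 141 in the knockdown libraries, with -0.01 (-0.22 to 0.19). Both groups overlapped throughout. In the edgeR fit with the block the averages were 0.02 (-0.14 to 0.18) for RUNX2 and -0.01 (-0.14 to 0.11) for RUNX3.

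CBFB held 122, 162 and 152 CPM in EV numbers 1, 13 and 25, 132, 170 and 165 in SH2, and 92.3, 168 and 145 in SH3. The libraries numbered 1 were lowest in each group, and SH3 number 1 was the lowest of all. The averaged log2 fold change was -0.00 (-0.41 to 0.40), with 0.10 (-0.37 to 0.57) for SH2 and -0.10 (-0.57 to 0.36) for SH3. In the edgeR fit with the block the average for CBFB was -0.02 (-0.19 to 0.16).

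RUNX1T1, the 3′ partner of the fusion, stood at 131, 138 and 117 CPM in EV numbers 1, 13 and 25, at 114, 120 and 115 in SH2, and at 132, 111 and 113 in SH3. It was lower than the matching EV library in 5 of 6 pairs, SH3 number 1 being at 101%, and the groups overlapped. The averaged log2 fold change was -0.14 (-0.33 to 0.06, adjusted p = 0.858). The ratio of RUNX1T1 to RUNX1 counts per kilobase was 0.413 ± 0.034 in EV, 0.425 ± 0.029 in SH2 and 0.440 ± 0.053 in SH3 (SD, n = 3). It was higher than in the same-number control in 6 of 6 pairs, but by a mean of only 0.07 on the log2 scale, and a two-sided exact permutation test over 84 splits gave p = 0.464. The level of the ratio depended on the lengths used: on the canonical models the EV mean would be 0.915 in place of 0.413. With labels exchanged only within numbers the exact p was 0.111, where 27 arrangements allow no p below 0.0370.

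CBFA2T2 held 34.9, 32.3 and 34.2 CPM in EV numbers 1, 13 and 25, 27.4, 29.6 and 27.8 in SH2, and 34.7, 26.7 and 32.3 in SH3. The knockdown and EV libraries overlapped, SH3 number 1 being within the range of EV. The log2 fold change was -0.26 (-0.51 to -0.01, adjusted p = 0.910) for SH2 and -0.11 (-0.37 to 0.14, adjusted p = 0.976) for SH3. The edgeR fit with the block gave -0.25 (-0.46 to -0.05, adjusted p = 0.190) and -0.12 (-0.32 to 0.08, adjusted p = 0.506). CBFA2T3, the second ETO paralogue, ran from 15.9 to 31.3 CPM in EV and from 16.3 to 33.1 in the knockdown libraries, with an averaged log2 fold change of -0.03 (-0.59 to 0.54). Its average in the edgeR fit with the block was -0.01 (-0.23 to 0.22).

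NCOR1, the nuclear receptor corepressor and scaffold of HDAC3, showed the largest averaged difference of the 9. It held 122, 120 and 128 CPM in EV numbers 1, 13 and 25, 92.7, 107 and 95.7 in SH2, and 85.5, 96.4 and 117 in SH3. The highest knockdown library, SH3 number 25, was still below the lowest control. In same-number pairs it stood at 74.8% to 89.3% of EV in SH2 and at 69.8% to 91.6% in SH3. The log2 fold change was -0.33 (-0.60 to -0.06, adjusted p = 0.872) for SH2, -0.31 (-0.58 to -0.04, adjusted p = 0.967) for SH3 and -0.32 (-0.55 to -0.09, adjusted p = 0.651) for both averaged. With the block the averaged adjusted p was 0.0733. The shRNAs differed by 0.01 (-0.26 to 0.29) in NCOR1. Its near copy NCOR1P1 had no count in any library.

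SIN3A, the scaffold of a deacetylase complex with HDAC1 and HDAC2, ranged from 141 to 171 CPM in EV and from 128 to 167 in the knockdown libraries. The groups overlapped, and the averaged log2 fold change was -0.09 (-0.33 to 0.16), and -0.09 (-0.22 to 0.04) in edgeR with the block. Over all 9 genes the median averaged log2 fold change was -0.09, beside 0.01 over all genes tested, both without a correction for transcript length.

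**Figure D3:**
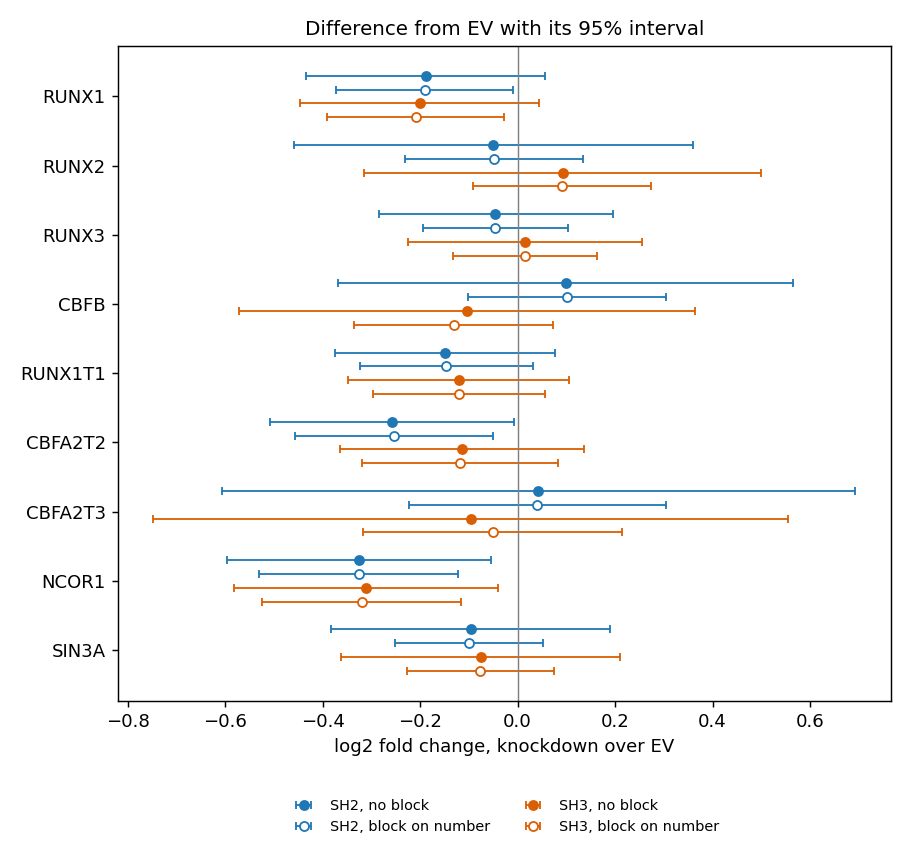
Log2 fold change of each gene for SH2 and SH3 against EV with its 95% interval, from the edgeR fit without a block (filled) and with the replicate number as a block (open). NCOR1 intervals lie below 0 in all 4 fits shown although no adjusted p passed 0.05. RUNX1 intervals lie below 0 with the block, and those of CBFA2T2 lie below 0 for SH2 with and without it.

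Members were called under 2 settings. DESeq2 with the block called NCOR1 for SH2, SH3 and their average, with an averaged log2 fold change of -0.32 (SE 0.09, adjusted p = 0.0101). Without SH3 number 1, the edgeR fit with the block called 1755 of 14291 genes for the average (12.3%). 3 of the 9 were among them, all lower: NCOR1 at -0.29 (SE 0.07, adjusted p = 0.0198), RUNX1 at -0.23 (SE 0.06, adjusted p = 0.0362) and CBFA2T2 at -0.23 (SE 0.07, adjusted p = 0.0433). RUNX1T1 was at -0.18 in that fit (SE 0.06, adjusted p = 0.0575). For SH2 alone it called NCOR1 and CBFA2T2 among 11.2% of genes, and for SH3 alone 0 of the 9 among 2.58%. Over 26 alternatives the averaged adjusted p ranged from 0.0101 to 1.0 for NCOR1, from 0.0362 to 1.0 for RUNX1 and from 0.0433 to 1.0 for CBFA2T2.

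Transcript length moved with these differences. NCOR1 has the longest transcript of the 9, 10705 bases. A correction for length with the block brought its averaged log2 fold change to -0.15 (-0.30 to -0.01, adjusted p = 0.293), that of RUNX1 to -0.10 (-0.24 to 0.04) and that of CBFA2T2 to -0.08 (-0.23 to 0.08). The same fit gave RUNX1T1 -0.03, CBFB -0.03, SIN3A 0.001, RUNX3 0.01, CBFA2T3 0.02 and RUNX2 0.08. Before the correction the fit with the block had RUNX1T1 at -0.13, SIN3A at -0.09 and CBFB at -0.02. The part of length in the results was otherwise not tested.

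The 3 RUNX1 rows are NM_001001890 (RUNX1b, from P2), NM_001754 (RUNX1c, from P1) and NM_001122607 (RUNX1a, from P2 with an early 3′ end). The counting settings are not given in the sources used here. Many rows of 1 gene held identical counts, so reads shared by isoforms were taken to have been counted in every row, and the row comparisons rest on that reading. RUNX1b and RUNX1c models end at the same 3′ exon, at position 36160098 of chromosome 21 (GRCh37), and RUNX1a ends at 36193576. RUNX1b has 1594 exon bases outside RUNX1c, at its 5′ end, and 4972 outside RUNX1a, in the 3′ exons that the fusion does not keep. RUNX1c has 542 exon bases outside RUNX1b and RUNX1a has 418, so the difference of 2 rows is a net value: it is a lower bound for the reads on such a stretch, and its change need not be that of the stretch.

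Against the RUNX1b row, the RUNX1a row was lower and the RUNX1c row higher in every knockdown library than in its same-number control. The RUNX1a row held 41.3%, 45.1% and 48.4% of the RUNX1b counts in EV numbers 1, 13 and 25. It held 37.6%, 42.4% and 42.8% in SH2, and 36.5%, 36.9% and 46.3% in SH3. Every knockdown value was below its control, although SH3 number 25 exceeded EV numbers 1 and 13. The RUNX1c row held 78.8%, 75.6% and 72.2% in EV, 81.4%, 78.2% and 76.3% in SH2, and 82.5%, 80.6% and 74.6% in SH3. The lower share of RUNX1a in 6 of 6 pairs compares with 16.7% of 2565 such rows over all genes, and the higher share of RUNX1c with 10.2%. Neither share passed the two-sided exact permutation test over 84 splits, with log2 ratios of -0.16 for RUNX1a (p = 0.167, adjusted 0.268) and 0.06 for RUNX1c (p = 0.179, adjusted 0.268). Within numbers the exact p was 0.0741 and 0.0370, the latter the smallest possible, and both were 0.111 after adjustment.

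In scaled counts, the RUNX1b row minus the RUNX1c row stood at 74.3%, 76.1% and 80.2% of the same-number control in SH2, and at 74.9%, 59.2% and 88.1% in SH3. The RUNX1a row stood at 60.6% to 92.0%, below its control in 6 of 6 pairs. The RUNX1b row minus the RUNX1a row, stood at 89.7%, 89.4% and 104% in SH2 and at 97.8%, 85.4% and 100% in SH3, and was below its control in 4 of 6 pairs. These 3 quantities were not tested against each other. The row differences were chosen after the row values were seen and carry no test. In the fit over all 30546 rows, the averaged log2 fold change was -0.34 (SE 0.14, adjusted p = 0.729) for RUNX1a, -0.20 (SE 0.09, adjusted p = 0.780) for RUNX1b and -0.14 (SE 0.09, adjusted p = 0.870) for RUNX1c. With the block RUNX1a had an adjusted p of 0.0766.

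**Figure D4:**
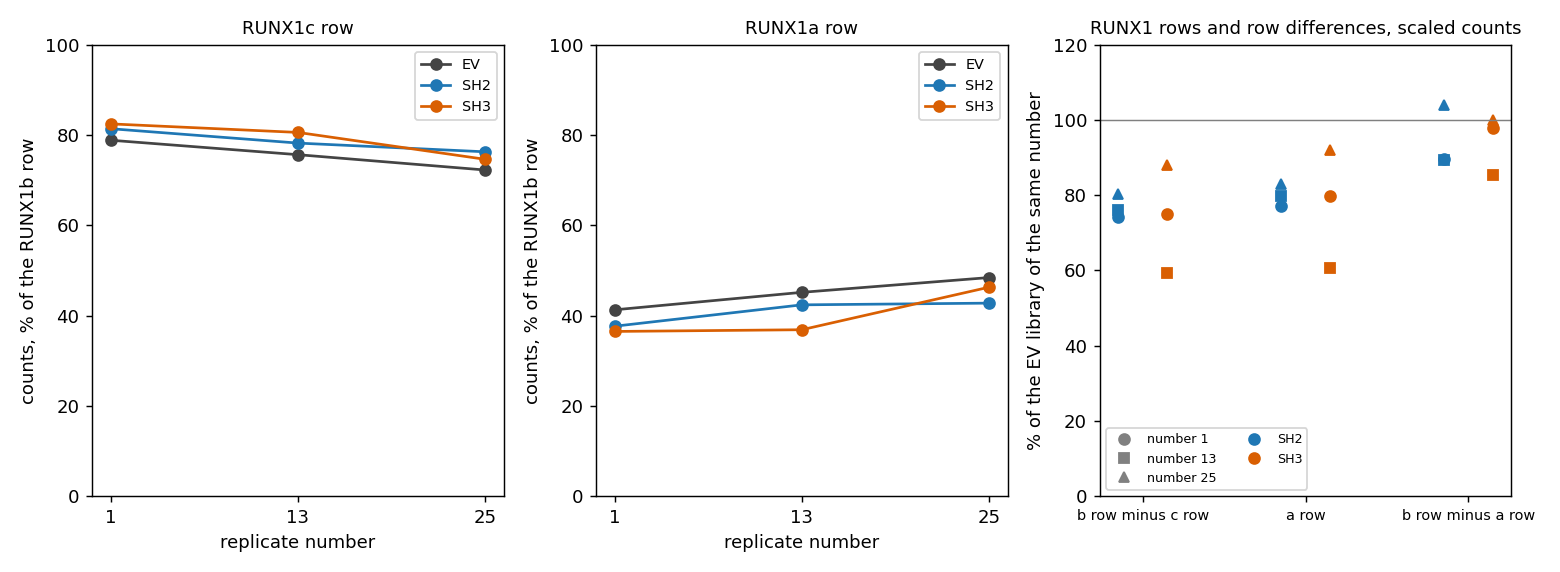
Counts of the RUNX1c and RUNX1a rows as a percentage of the RUNX1b row by replicate number (left and middle), and scaled counts of the RUNX1a row and of 2 row differences as a percentage of the EV library of the same number (right; shapes are numbers). The RUNX1b row minus the RUNX1c row and the RUNX1a row lie below 100% in all 6 pairs, and the RUNX1b row minus the RUNX1a row lies between 85.4% and 104%.

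The RUNX1T1 rows could not serve the same purpose. There were 15, of which 14 were identical in each library, and the last exceeded them by 0 to 2 counts. GENCODE coding models of RUNX1T1 share 1727 of 8872 exon bases, and the models behind the RefSeq rows were not compared. With counts this alike, comparing the rows did not separate fused from unfused RUNX1T1. Which exons the reads covered was not tested. Among the other genes, rows of RUNX2, RUNX3, CBFB, CBFA2T2, CBFA2T3 and SIN3A were within 97.6% to 100% of their highest row, apart from 2 noncoding RUNX2 rows at or below 0.059%. A single NCOR1 row, NM_001190438, differed and was noted after its values were seen. It held 26.3%, 27.6% and 31.9% of the main NCOR1 row in EV numbers 1, 13 and 25. In the knockdown libraries this row held 18.0% to 26.8%, which overlapped EV. Its share was lower in 6 of 6 pairs, as were 16.7% of 2565 row shares over all genes. Its averaged log2 fold change was -0.66 (SE 0.21, adjusted p = 0.651), and -0.68 (SE 0.13, adjusted p = 0.0495) with the block, which called 295 of the 30546 rows. RUNX1-IT1, a transcript inside RUNX1, had 16 to 41 counts, beside 7169 to 11213 in the RUNX1b row.

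For CBFB, CBFA2T3, RUNX2, RUNX3 and SIN3A at least 1 difference between replicate numbers was larger in size than the averaged difference from EV. These differences were not tested against each other. Between number 1 and the mean of 13 and 25, with group and number in the fit, 46.3% of genes were called (24.1% higher and 22.2% lower), and 3 of the 9, 1 higher and 2 lower. CBFB was lower in number 1 by a log2 fold change of -0.48 (SE 0.08, adjusted p = 0.00148), and all 3 libraries numbered 1 lay below the other 6, as in 12.1% of genes. RUNX3 was lower as well, at -0.17 (SE 0.06, adjusted p = 0.0376), which passed in 8 of 15 alternatives with adjusted p from 0.0178 to 0.109. Leaving out SH3 number 1 was among the settings in which RUNX3 did not pass. CBFA2T3 was higher in number 1, at 0.51 (SE 0.10, adjusted p = 0.00318). Both CBFB and CBFA2T3 passed in all 15 alternatives.

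Between number 25 and number 13, 5.87% of genes were called (3.1% of all genes being lower), and again 3 of the 9, all lower in number 25. CBFA2T3 had a mean of 17.4 ± 2.3 CPM in number 25, 26.0 ± 2.3 in number 13 and 30.2 ± 3.5 in number 1 (SD, n = 3), and its log2 fold change was -0.57 (SE 0.12, adjusted p = 0.0239). RUNX2 had 61.8 ± 2.2 CPM in number 25 and 86.1 ± 3.2 in number 13, with -0.48 (SE 0.08, adjusted p = 0.0113). SIN3A had 137 ± 7.7 and 168 ± 2.5 CPM, with -0.30 (SE 0.07, adjusted p = 0.0305). Values of RUNX2, RUNX3, CBFA2T3 and SIN3A did not overlap between these numbers, as in 15.7% of genes for the same direction. These calls depended on single libraries: over 15 alternatives the adjusted p reached 0.169 for CBFA2T3, 0.120 for RUNX2 and 0.204 for SIN3A. Without EV number 25 or without SH2 number 13, none of the 3 passed.

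**Figure D5:**
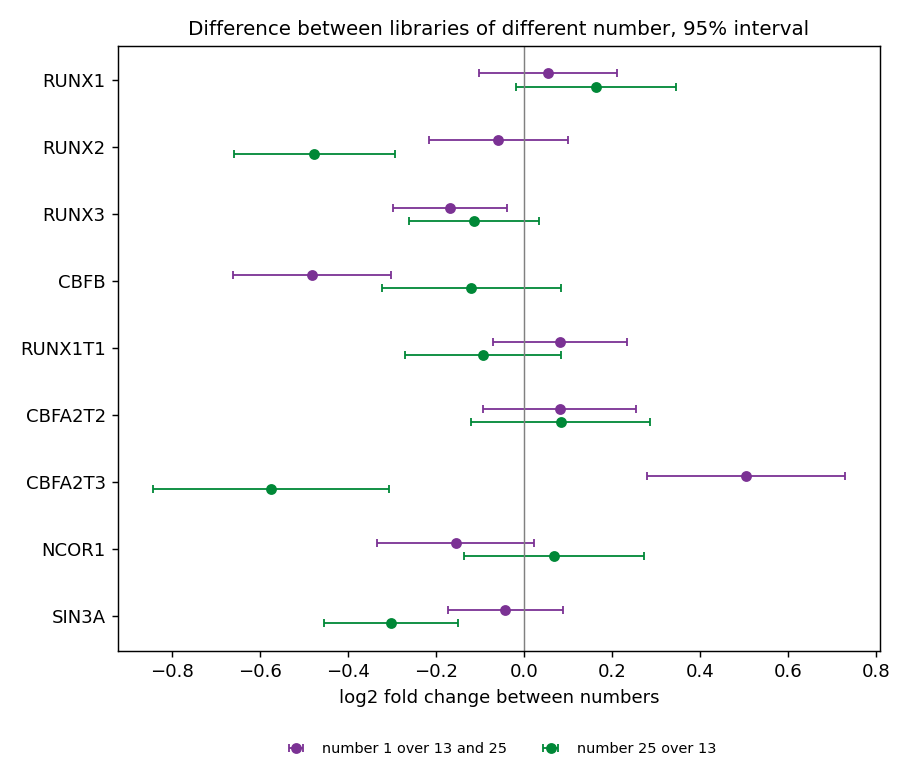
Log2 fold change of each gene between replicate numbers, with 95% intervals, from the edgeR fit with group and number. CBFA2T3 is higher in number 1 and lower in number 25, CBFB is low in number 1, and RUNX2 and SIN3A are low in number 25.

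RUNX1, RUNX1T1, CBFA2T2 and NCOR1 were called in neither comparison of numbers. RUNX1 differed by 0.06 (-0.10 to 0.21) between number 1 and the others, and by 0.16 (-0.02 to 0.35) between 25 and 13. RUNX1T1 differed by 0.08 (-0.07 to 0.24) and -0.09 (-0.27 to 0.08). NCOR1 differed by -0.15 (-0.33 to 0.02) and 0.07 (-0.14 to 0.27).

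Genes of the complexes that RUNX1 and the fusion recruit were examined as lists. Of the other NCoR complex genes, 0 of 8 tested were called for both shRNAs averaged, with or without the block, with a median log2 fold change of 0.01, as over all genes. TBL1X, which links NCoR to chromatin, was at 0.20 (SE 0.18), and KDM4A, a histone demethylase bound by the complex, at -0.09 (SE 0.07). Of 20 SIN3-HDAC genes 0 were called, with a median of 0.05. Within it ARID4B was at -0.23 (SE 0.11), SIN3B, the paralogue of SIN3A, at -0.18 (SE 0.12) and SAP18 at 0.17 (SE 0.09).

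Of 14 DNA-binding and bridging partners of AML1-ETO, 0 were called for the average with or without the block, and the median was 0.06. For SH3 alone the fit with the block called 1, TAL1, at -0.56 (SE 0.08, adjusted p = 0.0300), beside 0.416% of all genes, while TAL1 was at -0.07 (SE 0.08, adjusted p = 0.663) for SH2. TAL1, a haematopoietic stem cell factor, had an average without the block of -0.32 (SE 0.09, adjusted p = 0.623) with 48.1 to 59.6 CPM in EV and 35.6 to 55.5 in the knockdown libraries. JUN, the AP-1 subunit, was at 0.57 (SE 0.26, adjusted p = 0.761), and ERG, an ETS factor, at -0.18 (SE 0.16). TAL1 and JUN values overlapped between the groups.

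Of 19 coactivators and other cofactors of RUNX1, 0 were called for the average without the block (0.0% of all genes) and 1 with it (1.1% of all genes). KAT6A (MOZ), an acetyltransferase that coactivates RUNX1, was at 99.4 to 109 CPM in EV and 64.2 to 94.4 in the knockdown libraries. Its log2 fold change was -0.42 (SE 0.12, adjusted p = 0.623), and -0.43 (SE 0.09, adjusted p = 0.0488) with the block. KMT2A (MLL), which binds RUNX1 and methylates histone H3, was at -0.53 (SE 0.14) with 313 to 438 CPM in EV and 198 to 271 in the knockdown libraries. CDK6, a kinase that binds RUNX1, was at -0.35 (SE 0.10), with 613 to 822 CPM in EV and 533 to 605 in the knockdown libraries. With the block and the length correction KAT6A was at -0.29 (adjusted p = 0.105), KMT2A at -0.27 (adjusted p = 0.139) and CDK6 at -0.16 (adjusted p = 0.268). All 6 knockdown libraries lay below all EV libraries for these 3 genes, which were named for their small p, as they did in 2.61% of all genes. The median of the list was -0.05.

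Of 25 well known RUNX1-bound genes of blood cells, 0 were called with or without the block, and the median was -0.01. CDKN1A (p21) was at -0.54 (SE 0.23, adjusted p = 0.742), PLCG1 at -0.27 (SE 0.10, adjusted p = 0.688) and BPI, a neutrophil granule protein, at 0.85 (SE 0.45, adjusted p = 0.806) from a mean of 0.602 CPM in EV. Without SH3 number 1 the fit with the block called 12.3% of 14291 genes. It gave CDKN1A -0.64 (adjusted p = 0.0006), TAL1 -0.33 (adjusted p = 0.0109), JUN 0.34 (adjusted p = 0.0177), KAT6A -0.40 (adjusted p = 0.0103), KMT2A -0.51 (adjusted p = 0.0127) and CDK6 -0.32 (adjusted p = 0.0139), among other genes of the lists. TBL1X, KDM4A, ERG and BPI did not pass there. All were named for their small p with the block in all libraries, so these calls are no separate evidence. Between number 1 and the others 13 of the 25 RUNX1-bound genes were called, 10 of them higher in number 1, beside 46.3% called and 24.1% higher over all genes.

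Across the 9 libraries, the genes whose log2 CPM followed RUNX1 most closely were ZNF573 (Pearson r = 0.972), PROB1 (0.968), DAPK1 (0.960), CIC (0.958) and LRCH4 (0.952). For RUNX1T1 they were ARSA (0.971), ST6GALNAC2 (0.941), SNHG4 (0.937), RERE (0.933) and NR3C1 (0.933). They were the highest of 14199 genes over points that share groups, numbers and depth, and are given as a description. After the mean of each replicate number was subtracted, 0 of these 5 genes were among the 5 closest for RUNX1 and 0 for RUNX1T1.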

How the data were processed

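The 9 deposited tables held whole-number counts per RefSeq transcript, made by the authors on hg19 (GRCh37) and not normalized. The submitters' processing notes name STAR, featureCounts and DESeq2, and settings are not given in the sources used here. The study describes unstranded poly(A) libraries. The extraction text in the labels is written for sorted marrow cells and conflicts with the cell line given as source. Each of 25680 symbols was represented by its row with the highest total. edgeR 4.0.16 (R 4.3.3) was run with filterByExpr (minimum count 10, minimum total 15; 14199 genes), TMM scaling and the quasi-likelihood test of all 9 libraries by group. P values were adjusted by Benjamini-Hochberg over all genes, with a threshold of 0.05. CPM used effective library sizes, except for the values of 3 counts, which used the library totals. Deviations from the group means correlated at 0.398 to 0.731 in the 9 same-number pairs and at most 0.306 otherwise. The numbers were therefore taken to pair the libraries on the data, not the labels, and a fit with number as a block was added. DESeq2 1.42.0, other scalings, filters, length correction and left-out libraries were alternatives. Whether the replicates were separate cultures is stated by the study only, so p values measure the spread between libraries. Fits were tested on simulated data. Members and lists were chosen with earlier results of these data known. Named list genes are the 3 with the smallest p for the average in the fit with the block, and any called there, except a gene not reported here. Floors cover counting error only, as the reads carry no molecular identifiers.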

Additional observations from a re-analysis of the deposited data

How the results depend on the processing

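The direction of NCOR1, RUNX1, RUNX1T1 and CBFA2T2 for both shRNAs averaged was the same in all 26 alternatives, from -0.38 to -0.15, -0.27 to -0.10, -0.20 to -0.03 and -0.24 to -0.08. That of the genes near 0 was not, and the cause was not tested. With the replicate block and a length correction RUNX3 was at 0.00915, CBFA2T3 at 0.0229 and SIN3A at 0.00113. Over the leave-one-out fits with and without the replicate block, RUNX2 ranged from -0.0931 to 0.154, RUNX3 from -0.0696 to 0.0454, CBFB from -0.115 to 0.101 and CBFA2T3 from -0.264 to 0.176.

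Genes called for SH2, SH3, their average and SH3 against SH2, all 0 in the fit of groups, came to 40, 59, 156 and 15 with the replicate block, 5, 23, 14 and 7 with the replicate block and a length correction, 37, 93, 155 and 9 with the replicate block over genes with a length, 25, 26, 56 and 11 in DESeq2, and 374, 474, 622 and 152 in DESeq2 with the replicate block. Leaving out 1 library gave 0, 0 to 1, 0 to 2 and 0 without the block, and 0 to 1604, 1 to 368, 2 to 1755 and 0 to 257 with it. The upper values came without SH3 replicate 1, and for SH3 against SH2 without SH3 replicate 13; 103 were called there without SH3 replicate 1. Members called rose from 0 to 1 (NCOR1) for SH2, SH3 and the average in DESeq2 with the replicate block, and reached 0 to 2 for SH2 and 0 to 3 for the average with a library left out of the fit with the block. The block changed no other call of the 9 genes. The fits that combine the block with a left-out library or with genes of known length, and the canonical length in the ratio, were chosen after seeing the data.

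For number 25 against 13, 833 genes were called, 304 without a group term and 50 to 2750 with 1 library left out, and members called ranged from 0 to 3. For number 1 against the others, 6570 were called and 4813 to 6282 with 1 library left out. The RUNX1c share had p = 0.037 for its log2 ratio of 0.0625 with exact permutation within numbers (the pairing), and 0.03 to 0.09 on the log2 scale with 1 library left out. RUNX1a shares ranged from -0.22 to -0.10 and the RUNX1T1 to RUNX1 ratio from 0.01 to 0.13. Of the 5 genes most like RUNX1 and RUNX1T1, 0 were kept once number means were subtracted. The lowest value of the 9 genes was 15.9 CPM, well above the 0.108 CPM to which 3 counts came at most.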
